A study of Mus musculus with 38 samples.

Results

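The data described here are the full-length single-cell transcriptomes (SMART-seq2) of 82 mouse embryonic stem cells that had been exposed to all-trans retinoic acid (RA) for 48 h. All 82 cells of that time point were used, out of 339 SMART-seq2 cells taken at 0, 12, 24 and 48 h, and no cell was chosen by its expression. The cells belonged to the E14 line and were grown in 2i/L, a medium with a MEK inhibitor (1 µM), a GSK3 inhibitor (3 µM) and LIF (1000 U per ml), which is also the 0 h condition. They were then moved to N2B27 medium without inhibitors and LIF, with 0.25 µM RA. Each time point was 1 culture, so cells are not replicates of the condition, and values across cells are given as descriptions without a p-value. Bulk RNA-seq libraries of other RA cultures, sorted by antibody staining of CD24 and PDGFRA, and SCRB-seq cells of the same time point (3' tag counts with unique molecular identifiers, UMIs) were used for comparison. The sorted libraries were ectoderm-like cells (PDGFRA-/CD24+, 2 biological replicates) and XEN-like cells (PDGFRA+/CD24-, 2 biological replicates), both after 96 h of RA, with 2 libraries of cells in 2i/L, and 4 single libraries of PDGFRA- cells at 48 h split into quartiles of CD24 (Q1 lowest, Q4 highest).

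Retinoic acid enters the nucleus, binds receptors of the RAR and RXR families on DNA and switches on genes such as those of the Hox clusters. mESCs leave the naive pluripotent state, marked by Zfp42 (Rex1) and kept up by Pou5f1 (Oct4), and under RA they give rise to ectoderm-like cells, which carry the surface glycoprotein CD24, and to cells that resemble extraembryonic endoderm (XEN), which carry the growth factor receptor PDGFRA. Gata4 encodes a zinc finger transcription factor of the extraembryonic endoderm.

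Levels are given as normalized RPKM (reads per length of transcript and per sequencing depth, each cell scaled to the same total), and a gene was called present in a cell above 1. The number of genes present per cell ranged from 1607 to 8675 with a median of 7431. The 8 cells with the fewest genes had 1607 to 4842 and the other 74 had 5004 or more. Cells with few genes have lower chances of showing any gene, so counts of genes past a threshold of r and medians of gene lists are also given with the number of genes per cell held constant (partial correlation). Pearson's r between pairs of cells over all genes was between 0.255 and 0.746, so no cell was a copy of another. The number of reads per cell is not part of the values, and intervals for shares of cells are exact binomial 95% intervals that cover counting error only.

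At 48 h the marker genes were present in different numbers of cells. Cd24a was present in 63 of 82 cells, from 0 to 913 with a median of 72.0. Zfp42 was present in 55 cells, from 0 to 449 with a median of 36.1. Pou5f1 was present in 49 cells, from 0 to 202 with a median of 18.3. Gata4 was present in 9 cells (10.98%, interval 5.14 to 19.8), from 0 to 96.2 with a median of 0, and Pdgfra was present in 11 cells. Only 1 cell had a Gata4 level between 0 and the threshold. For Pdgfra 12 cells did and the lowest level above the threshold was 1.04, so its count depends more on the threshold. Nanog, a naive pluripotency factor, was still present in 73 cells, whereas Esrrb, another one, was present in 9. Of the ectoderm markers, the growth factor Mdk was present in all 82 cells and the cell surface protein Prtg in 78. These 2 were already widespread at 0 h, in 82 and 64 of 82 cells. The other ectoderm markers were present in fewer cells at 48 h: Fabp5 in 60, Sox11 in 53, Crabp1 in 49, Pax6 in 36 and Nes in 27. Markers of other lineages differed in how many cells had them. The mesoderm gene T and the trophoblast gene Elf5 were listed at 0 in every cell (0 of 82, with an upper exact limit of 4.40%), Mesp1 was present in 1 cell and Cdx2 in 5, while Mixl1 was present in 8, Eomes in 12 and Gata3 in 29. Gata3 lay between 0 and the threshold in 15 more cells.

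**Figure D1:**
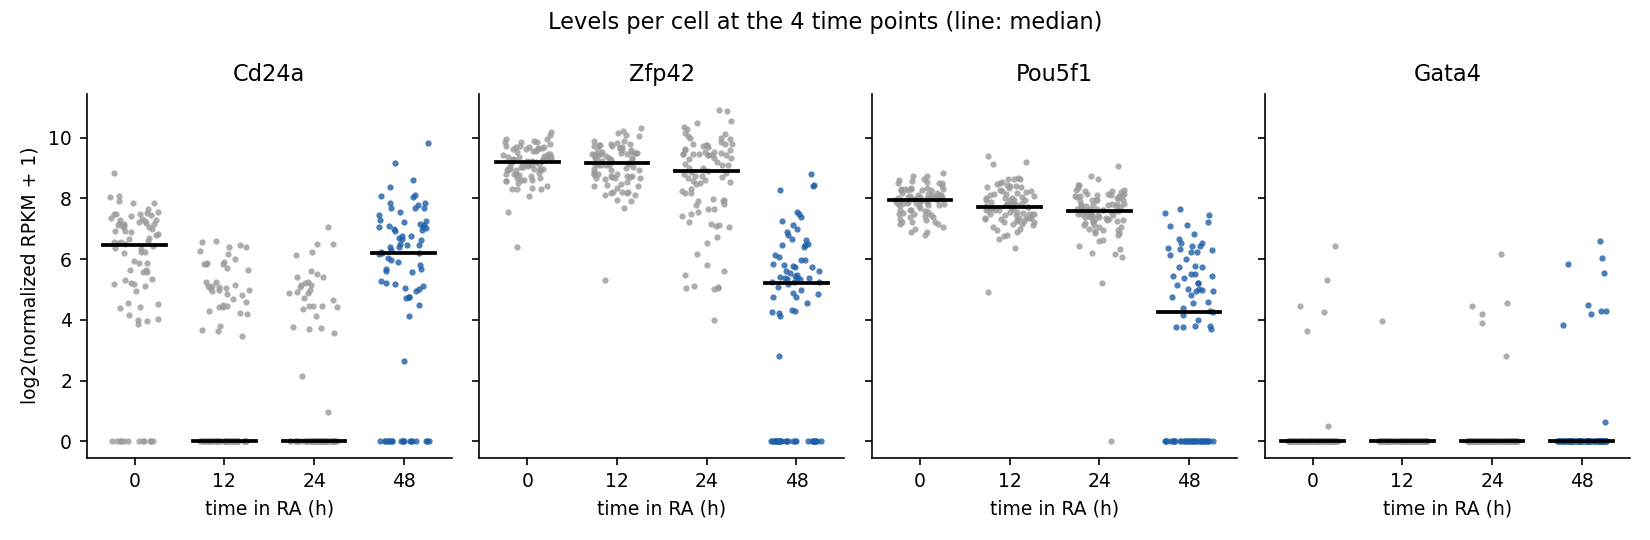
Level of Cd24a, Zfp42, Pou5f1 and Gata4 in each cell at 0, 12, 24 and 48 h of RA, as log2(normalized RPKM + 1). Points are cells (48 h in blue), lines are medians. At 48 h Zfp42 and Pou5f1 include cells at 0, Cd24a is present in 63 cells, and Gata4 is present in 9.

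Cd24a was present in fewer cells at 12 and 24 h than at 0 and 48 h. It was present in 70 of 82 cells at 0 h, in 41 of 86 at 12 h, in 31 of 89 at 24 h and in 63 of 82 at 48 h. Gata4 was present in 5, 1, 6 and 9 cells at these times. At 48 h, 38 cells had both Zfp42 and Pou5f1, 17 had Zfp42 without Pou5f1, 11 had Pou5f1 without Zfp42 and 16 had neither. Nanog was present in 15 of those 16 cells, and 13 of them had Cd24a. Both Cd24a and Zfp42 were present in 40 cells.

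Across the 82 cells, Cd24a and Zfp42 were negatively correlated on the log2(value + 1) scale (r = -0.33, and -0.44 with genes per cell held constant). The correlation of Cd24a with Pou5f1 was weaker (r = -0.07, and -0.16 with genes per cell held constant). Zfp42 and Pou5f1 had r = 0.25. Gata4 had r = 0.05 with Zfp42 and 0.09 with Pou5f1, and 0.49 with Pdgfra. Without the 4 cells described further on that carry most of the genes found with Gata4, r of Gata4 with Pdgfra was 0.03, and by Spearman's rho over all 82 cells it was 0.26. Having both Gata4 and Pdgfra was part of how the 4 cells were picked, so a fall of r follows from that choice. These 82 cells shared 1 culture and differed in the number of genes detected, and Cd24a itself had r = 0.42 with the number of genes per cell, Zfp42 0.15, Pou5f1 0.16 and Gata4 0.07.

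The genes that went with Cd24a included neural and RA-responsive genes. Of 12611 genes present in at least 8 cells, 184 (1.46%) had r of 0.4 or more with Cd24a and 7 (0.0555%) had r of -0.4 or less. With genes per cell held constant these counts were 12 and 7, so the larger first count moved with the number of genes detected. Of all genes, 76.9% had a positive r with Cd24a, 61.6% with Zfp42, 63.9% with Pou5f1 and 55.4% with Gata4. Of the neuroectoderm list, 5 of 20 genes had r of 0.4 or more (1 with genes per cell held constant) and 19 of 20 had a positive r, against 76.9% of all genes. The median r of the list was 0.28 (0.16 with genes per cell held constant), against 0.11 and 0.00 over all genes. The 5 genes were Cdh2 (N-cadherin), Sox11 (a neural transcription factor), Fabp5 (a carrier that delivers RA), Meis2 (a Hox cofactor) and Prtg. The retinoid response list had 3 of 24 genes at r of 0.4 or more (1 with genes per cell held constant) and a median r of 0.24 (0.14 with genes per cell held constant). It shares genes with the neuroectoderm list, Crabp1 and Crabp2 among them, so the results of these lists are not independent.

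Cdh2 was present in 48 cells with r = 0.52 (0.44 with genes per cell held constant). In the 27 cells with the highest Cd24a (121.5 to 913) its level ranged from 0 to 201 with a median of 36.2, and in the 27 cells with the lowest Cd24a (0 to 31.5) from 0 to 36.3 with a median of 0. The ranges overlapped. Vcan, a large matrix proteoglycan, had medians of 29.6 and 0 in these cells and r = 0.52. Prtg had medians of 311 and 107. Stra6, the RA-inducible retinol transporter, had medians of 172 and 45.8, and Dhrs3, an RA-induced enzyme that returns retinaldehyde to retinol, had 763 and 274. Gpc1, a heparan sulfate proteoglycan, had the highest r of all genes (0.61, and 0.54 with genes per cell held constant). The next genes by r were Wrb, Fam178a, Prkra and Igdcc3, and Sohlh2, Praf2 and Tshz1 followed Cdh2 and Vcan. The 27 cells with high Cd24a had a median of 7569 genes and those with low Cd24a 6112.

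Naive pluripotency genes went the other way. Of that list, 11 of 14 genes had a negative r with Cd24a and 1 had r of -0.4 or less (2 with genes per cell held constant), and the median r was -0.17 (-0.21 with genes per cell held constant). That gene was Dppa5a, an RNA-binding protein of pluripotent cells (r = -0.45). It was present in all 82 cells, with a median of 452 in the 27 cells with the highest Cd24a and 1034 in the 27 with the lowest. Zfp42 had medians of 0 and 52.6, and Esrrb was present in 0 and 6 of the 27 cells. Genes of DNA replication (S phase) were positive in 24 of 24, against 76.9% of all genes, with a median r of 0.23, which became 0.06 with genes per cell held constant. The 2-cell-like list, described further on, was negative with Cd24a in 10 of 10 genes (median r -0.18, and -0.04 with genes per cell held constant), and without the 12 cells that carry most of it, 183 genes in place of 191 passed either threshold with Cd24a.

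The residual pluripotency transcripts Zfp42 and Pou5f1 went with partly different genes. With Zfp42, 20 genes (0.159%) had r of 0.4 or more and 2 (0.0159%) had r of -0.4 or less, and with genes per cell held constant the counts were 12 and 4. With Pou5f1 the counts were 10 (0.0793%) and 1 (0.00793%), and 8 and 5 with genes per cell held constant. Without the 8 cells with the fewest genes, the high and low counts were 13 and 13 for Zfp42 and 7 and 14 for Pou5f1, so the balance between them depended on those cells. The naive pluripotency list was positive in 13 of 13 genes with Zfp42 and in 14 of 14 with Pou5f1, against 61.6% and 63.9% of all genes. Its median r was 0.13 with Zfp42 and 0.17 with Pou5f1 (0.14 and 0.16 with genes per cell held constant), against 0.04 for each over all genes. Klf5, a naive pluripotency factor, had r = 0.40 with Zfp42 and 0.47 with Pou5f1. L1td1, an RNA-binding protein of pluripotent cells, had r = 0.38 and 0.47. The glucose transporter Slc2a3 had r = 0.43 with Pou5f1, and Dppa5a had 0.42. The other genes highest with Pou5f1 were D630045M09Rik, Pwp2, Zfp367, Rpp25, Ccdc117 and Pgm1, and Scd3, a fatty acid desaturase, was lowest (r = -0.42).

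Genes of mitosis went with Zfp42. The G2 and M phase list was positive with Zfp42 in 28 of 28 genes, against 61.6% of all genes, with a median r of 0.23 (0.20 with genes per cell held constant), and 3 of them, Ccnb1 (cyclin B1), Birc5 (survivin) and Kif11 (a spindle motor), had r of 0.4 or more (1 with genes per cell held constant). With Pou5f1 the median was 0.05 (0.02 with genes per cell held constant), and 25 of 28 genes had a higher r with Zfp42 than with Pou5f1, against 48.95% of all genes. Several of the 10 genes highest with Zfp42 act in mitosis, namely Bub3 of the spindle checkpoint, the condensin subunit Ncaph2, the kinesin Kif2c and Ccnb1. Also among the 10 were Hspb1, Edem2, Pdcd10, Gtf2f2 and the telomere protein Terf1. Ccnb1 had a median of 576 in the 27 cells with the highest Zfp42 and 238 in 27 cells without Zfp42, with overlapping ranges. The 2 genes lowest with Zfp42 were Vcan (r = -0.43) and the trunk gene Hoxc8 (r = -0.41). With Cd24a, 21 of the 28 mitotic genes had a negative r (median -0.04, and -0.21 with genes per cell held constant).

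**Figure D2:**
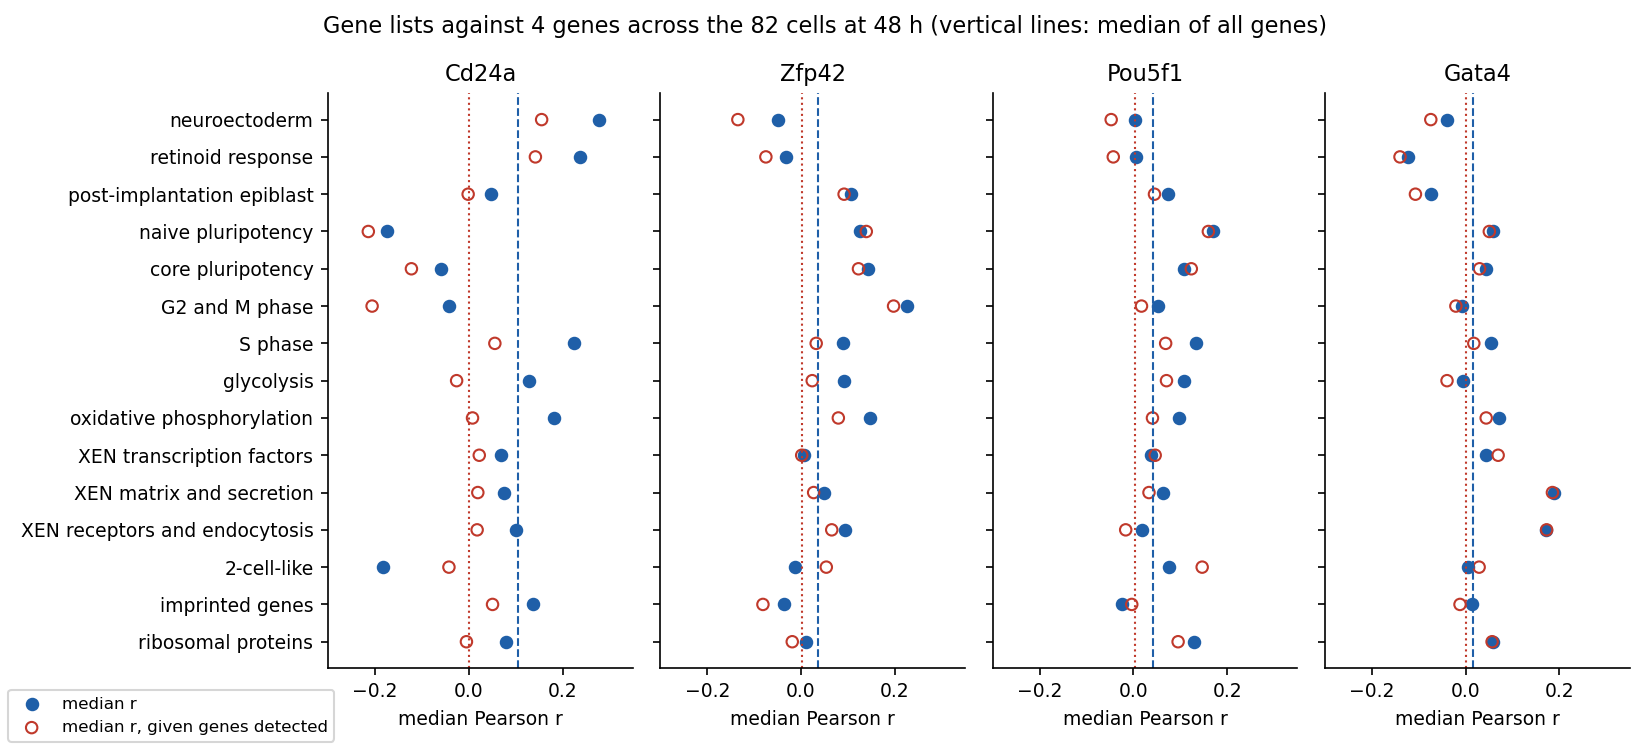
Median Pearson r of 15 gene lists with Cd24a, Zfp42, Pou5f1 and Gata4 across the 82 cells at 48 h, before (filled) and after (open) the number of genes per cell was held constant; vertical lines are the medians of all genes. The neuroectoderm list has 0.28 with Cd24a, the naive list -0.17 with Cd24a, and the G2 and M phase list 0.23 with Zfp42.

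The genes with the highest r to Gata4 included endocytic genes of extraembryonic endoderm, and these values rested mainly on 4 cells. Of 12611 genes, 18 (0.143%) had r of 0.4 or more with Gata4 and 2 (0.0159%) had r of -0.4 or less, and with genes per cell held constant the counts were 16 and 2. The highest was Cubn (cubilin, an endocytic receptor of visceral endoderm, r = 0.62), followed by Srgn (serglycin, r = 0.54) and Nostrin (an endocytic adaptor, r = 0.53). Rap1gap2, the keratin Krt8, Cd72, the lipid-sensing receptor Ppard, Afap1l1, Ryr1 and Mttp (lipoprotein assembly) followed. Of the list of XEN receptors and endocytosis, 2 of 12 genes (Cubn and Pdgfra) had r of 0.4 or more and the median was 0.17. Of XEN matrix and secretion, 20 of 21 genes were positive, against 55.4% of all genes, with a median of 0.19, against 0.02 over all genes. The transcription factors of that lineage had a median of 0.04, and with genes per cell held constant the 3 medians were 0.17, 0.19 and 0.07. Gata6 was present in 1 of the 9 cells with Gata4 and in 13 of the other 73.

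The 9 Gata4 cells were not alike. Gata4 was 96.2, 65.2, 55.9, 45.4, 21.6, 18.7, 18.3, 17.2 and 13.2 in them, in falling order. Cubn was 42.97, 34.8, 12.3, 41.4, 0, 60.0, 0, 0 and 0 in the same cells. Srgn was 317, 322, 332, 60.2, 0, 289, 0, 0 and 43.1. Cubn was thus present in 5 of 9 cells, and in 4 of the other 73. Hoxb2, a hindbrain Hox gene, was 0, 0, 0, 52.7, 59.2, 0, 115, 227 and 76.98. Cells 1, 2, 3 and 6 carried Gata4, Pdgfra, Sox17, Cubn, Srgn, Nostrin and Dab2 and had Hoxb2 at 0, whereas the other 5 had Hoxb2. Hoxb2 was present in 76 of the 82 cells. These 4 cells also had Zfp42 (39.98 to 166) and Pou5f1 (12.5 to 148), and 2 of them had no Cd24a. Cells 1, 2, 3 and 6 were picked for having Gata4, Pdgfra, Sox17 and Cubn together. A fall of r for Pdgfra and Cubn once they are left out thus follows from the choice. Without these 4 cells, r with Gata4 was 0.25 for Cubn, 0.18 for Srgn, 0.11 for Nostrin, 0.03 for Pdgfra and 0.57 for Cd72, and for Hoxb2 it was 0.01 in place of -0.47. Without them, 7 genes in place of 20 passed either threshold. Without the single cell with the highest Gata4, 9 genes passed.

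**Figure D3:**
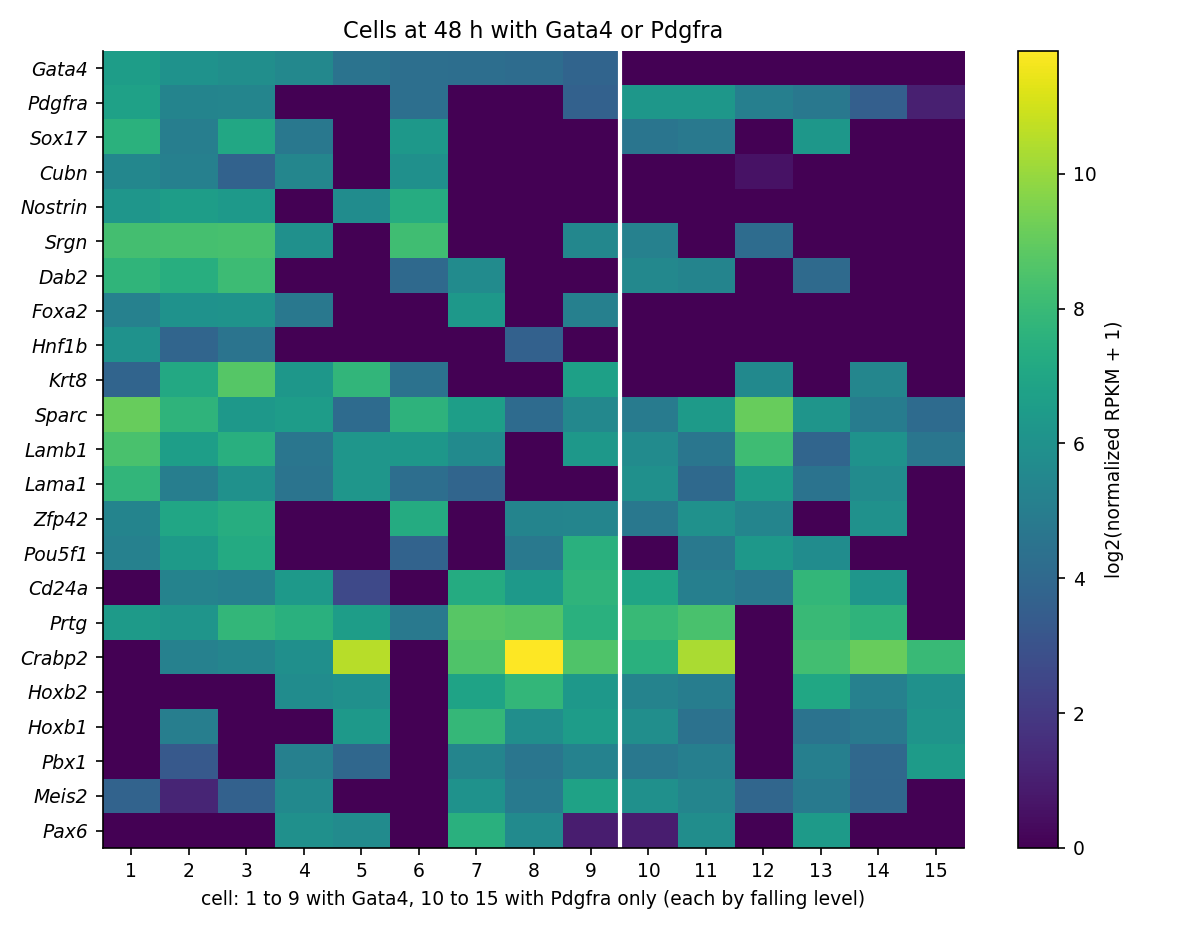
Levels, as log2(normalized RPKM + 1), of 23 genes in the 9 cells at 48 h with Gata4 (cells 1 to 9, by falling level) and the 6 cells with Pdgfra but without Gata4 (cells 10 to 15). Cells 1, 2, 3 and 6 carry Cubn, Srgn and Nostrin with Hoxb2 at 0, and cells 7 and 8 carry none of those 3.

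Some of the genes present in Gata4 cells at 48 h were in few cells of any kind earlier, but others were not. Krt8 was present in 29 of 82, 31 of 86, 28 of 89 and 23 of 82 cells at 0, 12, 24 and 48 h. Srgn was present in 10, 12, 8 and 17 cells at these times. Foxa2 was present in 0, 0, 1 and 21 cells at 0, 12, 24 and 48 h, Cubn in 0, 0, 2 and 9, and Dab2 in 2, 2, 4 and 31. Out of 7 genes chosen after the values at 48 h were seen (Pdgfra, Sox17, Cubn, Dab2, Srgn, Nostrin and Foxa2), 4 or more were present in 0 of 5 Gata4 cells at 0 h, 0 of 1 at 12 h, 0 of 6 at 24 h and 5 of 9 at 48 h. Among all cells, 0, 0, 1 and 8 reached 4. Since the 7 genes were chosen at 48 h and most were rare before it, low counts at the earlier times follow from that choice.

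Promoters of the genes that went with Gata4 were searched for the GATA motif, AGATAA or TGATAA on either strand, in the 300 bases from 250 before to 50 after the start given by RefSeq (GRCm38.p6). Promoters of 1 chromosome were left out of the search and of the background. Of the 10 genes, 9 had a promoter among those searched, and 1 of them, Krt8, held a match, against 18.95% of 27025 promoters. Krt8 (chr15:102004293-102004592, minus strand) had the match at base -239, shown in capitals. Cubn (chr2:13491827-13492126, minus strand), the gene highest with Gata4, had none in this window.
Krt8: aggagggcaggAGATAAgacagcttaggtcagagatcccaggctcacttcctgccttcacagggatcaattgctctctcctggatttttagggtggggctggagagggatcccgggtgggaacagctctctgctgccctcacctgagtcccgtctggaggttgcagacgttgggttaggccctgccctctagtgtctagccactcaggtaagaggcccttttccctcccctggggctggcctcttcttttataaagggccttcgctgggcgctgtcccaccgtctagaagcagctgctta
Cubn: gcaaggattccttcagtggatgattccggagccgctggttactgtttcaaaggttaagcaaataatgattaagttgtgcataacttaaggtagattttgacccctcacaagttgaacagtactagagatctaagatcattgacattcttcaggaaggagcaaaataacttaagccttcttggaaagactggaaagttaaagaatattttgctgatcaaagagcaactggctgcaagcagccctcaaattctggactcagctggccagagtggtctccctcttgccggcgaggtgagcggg

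In bulk libraries, a lower level can stem from fewer cells of a type or from less RNA per cell, and these cannot be told apart. At 96 h the genes found with Gata4 in single cells were higher in XEN-like than in ectoderm-like cells. Of the 30 genes with the highest r, 21 were tested, 14 of them were higher in XEN-like cells (edgeR quasi-likelihood test, Benjamini-Hochberg adjusted p below 0.05) and 0 were lower, against 6.98% and 5.71% of 8945 genes. Their median log2 change was 2.87, against -0.06 over all genes. Genes with few counts were left out before the test, and a gene could be kept through the XEN-like libraries alone. Nostrin, for example, had 7 and 3 counts in the ectoderm-like libraries and 300 and 55 in the XEN-like ones. Such genes could hardly come out lower in XEN-like cells, so the direction of the set was in part set by this filter. The set includes Pdgfra, whose protein was used for the sort. Leaving out replicate 1 of the ectoderm-like or of the XEN-like libraries lowered the 14 to 5. Cubn was 1.11 and 10.3 CPM (counts scaled to the library total) in the ectoderm-like libraries and 235 and 74.7 in the XEN-like ones (log2 change 4.86 ± 0.70 SE, edgeR adjusted p = 0.0019). Srgn was 9.45 and 91.1 against 1078 and 1116, and Nostrin 3.89 and 1.94 against 152 and 50.1, and neither gene's groups overlapped. Gata4 itself had a log2 change of 2.91 ± 0.60 (adjusted p = 0.010). Hoxb2 was 389 and 117 CPM in ectoderm-like cells and 5.59 and 4.56 in XEN-like cells.

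The Cd24a set had mostly lower levels in XEN-like cells. All 30 genes with the highest r to Cd24a were tested, and 10 were lower and 1 was higher in XEN-like cells, against 5.71% and 6.98% of 8945 genes. Their median log2 change was -0.90, against -0.06 over all genes. The count of lower genes fell whichever of the sorted libraries was left out. Cdh2 was 87.3 and 73.7 CPM in ectoderm-like cells and 1.52 and 0 in XEN-like cells. Vcan was 64.5 and 74.3 against 5.08 and 5.47. Gpc1, the gene with the highest r, was 11.1 and 5.81 against 2.03 and 0.91 and did not pass the test (log2 change -2.28, edgeR adjusted p = 0.083).

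CD24 protein gave a second comparison at 48 h itself. The 4 quartile libraries held 1063809 to 1583762 counts, with 1 library per quartile, so there is no test and the intervals cover counting error only. Genes were called where Q4 over Q1 was 1.5-fold or more with an interval that left out 1, which held for 6.48% of 8978 genes upwards and 5.98% downwards. Of the 30 genes with the highest r to Cd24a, 29 had enough counts, 17 were higher in Q4 and 0 lower (median ratio 1.69, against 1.04 over all genes). Of the 30 with the lowest r, 19 had enough counts, 9 were lower and 1 was higher. Cd24a was 19.4, 35.7, 60.2 and 127 CPM from Q1 to Q4 (Q4 over Q1 6.54, interval 4.42 to 10.0). Vcan was 2.68, 4.28, 9.40 and 21.5 (8.03, interval 2.86 to 31.1), and Cdh2 was 4.01, 2.86, 11.3 and 17.05 (4.25, interval 1.72 to 12.6). L1td1 was 203, 186, 147 and 24.0, Zfp42 148, 134, 102 and 56.8, and Pou5f1 109, 95.0, 74.3 and 41.7. Gpc1, with the highest r, had too few counts to be compared, and Wrb, the next, was not called (1.22, interval 0.76 to 1.97). Of the mitotic genes that went with Zfp42, 0 of 28 were higher and 1 was lower, and Ccnb1 was 333 in Q1 and 328 in Q4. Of the neuroectoderm list, 12 of 17 genes, Cd24a included, were higher, and of the naive list 9 of 15 were lower.

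**Figure D4:**
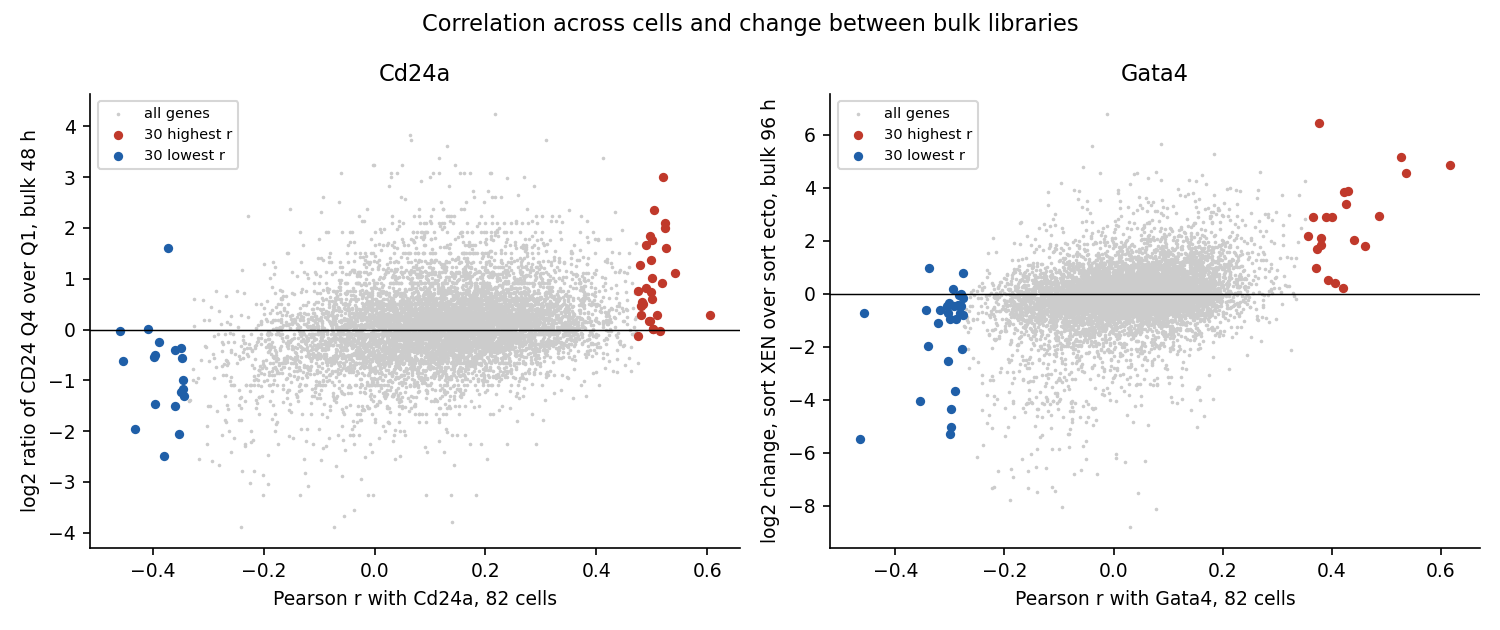
Pearson r across the 82 cells against the log2 ratio between bulk libraries, for Cd24a (left, CD24 Q4 over Q1 at 48 h) and Gata4 (right, XEN-like over ectoderm-like at 96 h). Grey points are all genes, red and blue the 30 genes with the highest and lowest r. All 21 tested genes of the Gata4 set lie above 0, where a gene could be tested through its counts in the XEN-like libraries alone.

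SCRB-seq cells of the 48 h time point were sparser. Of 384 barcodes, 277 had more than 2000 UMIs, with a median of 4005. Of the genes highest with Cd24a, 22 of 28 tested (78.6%) had r above 0 with Cd24a there, against 61.7% of all genes. For Zfp42 the share was 20 of 27 (74.1%, against 55.9%) and for Pou5f1 16 of 26 (61.5%, against 50.3%). Of the genes lowest with Cd24a, 9 of 19 (47.4%) had r above 0. Of those lowest with Zfp42 and Pou5f1, 8 of 14 (57.1%) and 5 of 7 (71.4%) had r above 0, both above the share of all genes, so their negative direction was not seen there. Gata4 had a UMI in 0 of 277 cells, so it could not be compared. This allows a share of up to about 1.08% of cells with a UMI, by the approximate limit of 3 over the number of cells and not the exact interval. The mitotic list had r above 0 with Zfp42 in 23 of 28 genes, with Cd24a in 21 and with Pou5f1 in 19, against 55.9%, 61.7% and 50.3% of all genes. The mostly negative direction of this list with Cd24a in the SMART-seq2 cells was thus not seen there. Its difference between Zfp42 and Cd24a was small.

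Neither Cd24a nor the pluripotency genes led the first principal component. The first principal component over the 631 most variable genes held 15.5% of their variance and was led by B020004J07Rik, 5430402O13Rik, Gm4971, Cpb2, Gm5662, Lmx1a, Tdpoz3, Ubtfl1, BC147527 and Gm4858. Its score had r = 0.74 with the summed level (log2 scale) of 10 2-cell-like genes, Dppa2 left out. Such genes mark rare cells in mESC cultures that transcribe genes of the embryo's earliest cleavage stage, among them the Zscan4 family and Zfp352. The second component held 4.71% and was led by Ngdn, Ndufa7, Mrpl38, Prdx5, Timm8a1, 2410015M20Rik, Rsl1d1 and Dnttip2 on one side and Gprc5c and Rian, an imprinted noncoding RNA, on the other. Of 10 tested genes of the 2-cell-like list, 9, Dppa2 included, were among the 631 from which the component was built, so the r of 0.74 is in part that of these genes with themselves. The score of the first component also had r = -0.46 with the number of genes per cell. With Cd24a it had r = -0.31 and with Prtg -0.53, against 0.006 with Zfp42 and 0.007 with Pou5f1.

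At 48 h, 12 of 82 cells (14.6%, interval 7.80 to 24.2) had 8 or more of the 11 genes of the 2-cell-like list, compared with 0 of 82 at 0 h, 0 of 86 at 12 h and 2 of 89 at 24 h. The 11 genes are not independent markers, since the Zscan4 copies among them share sequence. Dppa2, also counted, was present in 72 cells at 48 h and in 80 at 0 h. A threshold on a count sets a range, not a cell type. No cell at 48 h had 7 of these genes and 1 had 6. In the 12 cells the summed level of the 11 genes ran from 368 to 18307, and in 7 of them it was 5765 or more. Among the other 70 cells it reached 648, so the ranges overlapped. Zscan4d was 9.83 to 3936 with a median of 1108 in the 12 cells. In the other 70 its median was 0, but it was present in 17 of them, at up to 259. Of the 12 cells, 3 were among the 8 with the fewest genes. Cd24a was present in 8, Zfp42 or Pou5f1 in 8 and Gata4 in 1. The RA-responsive gene Hoxb2 was present in 11 of the 12 cells. In SCRB-seq cells, where detection is sparser, 12 of 277 (4.33%) had a UMI of 8 or more of the 11 genes.

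**Figure D5:**
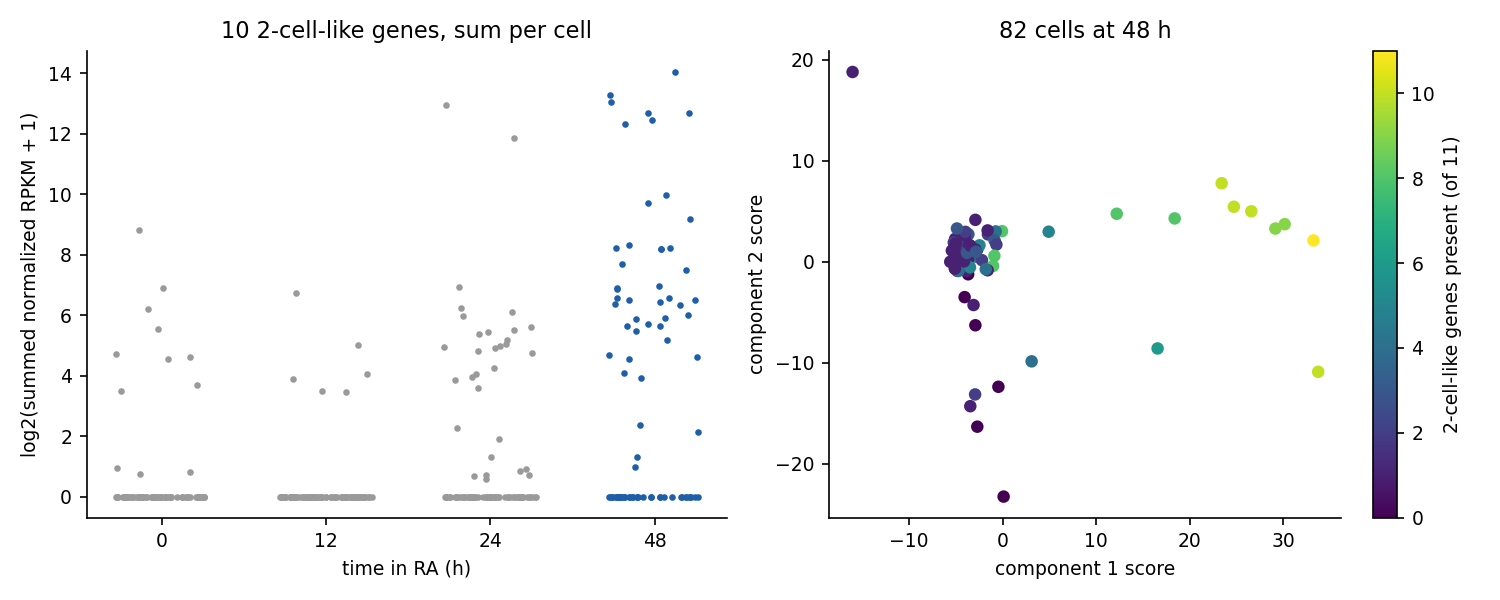
Left, summed level of 10 2-cell-like genes (without Dppa2) in each cell, as log2(summed normalized RPKM + 1), at 0, 12, 24 and 48 h. Right, scores of the first 2 components for the 82 cells at 48 h, coloured by the number of 2-cell-like genes present. The 7 cells with 9 or more of the genes have the highest scores on component 1.

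The Zscan4 copies are nearly identical, so their single values are uncertain. Of 50-base windows of their transcripts, 75.9% for Zscan4c, 47.9% for Zscan4d and 79.7% for Zscan4f also occur in another copy. Windows were compared only within a small set of genes, mostly such copies, so sharing with other transcripts was not examined. The promoters show the same likeness. They are given from RefSeq (GRCm38.p6) for Zscan4c (chr7:11005495-11005794, plus strand), Zscan4d (chr7:11166099-11166398, minus strand) and Zscan4f (chr7:11397665-11397964, plus strand), with capitals at bases that differ from Zscan4c in the overlap. Zscan4d matched Zscan4c at 281 of 289 bases (97.2%) and Zscan4f at 275 of 277 (99.3%).
Zscan4c: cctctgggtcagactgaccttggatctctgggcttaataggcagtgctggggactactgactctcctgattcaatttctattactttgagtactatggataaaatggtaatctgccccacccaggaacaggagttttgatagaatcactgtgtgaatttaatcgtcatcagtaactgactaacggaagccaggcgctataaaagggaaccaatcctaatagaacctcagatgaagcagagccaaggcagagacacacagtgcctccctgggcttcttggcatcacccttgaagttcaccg
Zscan4d: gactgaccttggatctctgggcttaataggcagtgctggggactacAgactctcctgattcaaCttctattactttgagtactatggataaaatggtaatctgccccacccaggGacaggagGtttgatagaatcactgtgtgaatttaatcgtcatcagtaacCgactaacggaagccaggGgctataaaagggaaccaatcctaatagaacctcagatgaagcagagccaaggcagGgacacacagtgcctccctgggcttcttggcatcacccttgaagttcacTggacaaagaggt
Zscan4f: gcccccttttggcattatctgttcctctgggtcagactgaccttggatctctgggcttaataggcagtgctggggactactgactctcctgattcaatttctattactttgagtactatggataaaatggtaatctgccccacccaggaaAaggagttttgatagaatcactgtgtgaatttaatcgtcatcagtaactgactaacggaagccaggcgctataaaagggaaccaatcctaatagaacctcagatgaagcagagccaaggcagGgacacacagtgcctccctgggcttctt

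From 24 h to 48 h, 12180 genes reached a mean of 5 at either time, 1305 (10.7%) were more than 2-fold higher and 1072 (8.8%) more than 2-fold lower. With 1 culture per time these are sizes without a test. Of the neuroectoderm list 13 of 21 genes were higher (median ratio 2.63), of the retinoid response list 12 of 22, of the XEN transcription factors 6 of 10, of the imprinted genes 10 of 15 and of the 2-cell-like genes 8 of 9 (median ratio 6.06). Of the naive list, 14 of 19 were lower (median ratio 0.36, against 0.96 over all genes). Among genes with a mean above 0 at both times the largest ratios upwards were those of Cacna1g, Col1a2, Gpr50, Nos1ap and Leprel1, all with means near 0 at 24 h and means of 7.12 to 12.5 at 48 h. Downwards they were Plxna4, Gpr133, Lrrc34, the naive pluripotency regulator Prdm14 and Zap70. Lrrc34 was present in 37 cells at 24 h and in 2 at 48 h, and Prdm14 in 19 and 1.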

How the data were processed

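SMART-seq2 RPKM were deposited per cell by the authors, without read counts, so depth per cell is unknown. The bulk and SCRB-seq files are deposited whole-number counts (SCRB-seq: UMIs). The submitters' processing notes name BWA 0.7.4, TopHat, Cuffnorm and the mm10 build. RPKM were rescaled so that every cell summed to the median of the 0 h cells. Text values with a comma (0.129% at 48 h, all below 1) were read as 0, and 4 rows with repeated names were dropped, which left 22811 genes. Pearson's r was computed on log2(value + 1) for genes above 1 in at least 8 cells. Named genes were the 10 with the highest and lowest r per gene among those at 0.4 or more (-0.4 or less) that kept Spearman's rho past 0.3, list genes, the 10 leading genes of the first 2 components and the 5 largest ratios per direction from 24 to 48 h. Variable genes were the top 5% by coefficient of variation over a moving average of 100 genes. Bulk libraries (1097083 to 2297225 counts in the 6 used at 96 h and in 2i/L) were tested with edgeR 4.0.16 (R 4.3.3), and checked with DESeq2 1.42.0. Q4 over Q1 was computed for genes with at least 10 counts over both. 10 of the 25 sample columns of the bulk table were not used. Scripts ran in Python 3.11.15 and were tested on simulated data. Some genes that the rule names are not reported here. The members and lists were chosen with earlier results of these data known.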

Additional observations from a re-analysis of the deposited data

How the results depend on the processing

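The number of genes past r of 0.4 or -0.4 depended on the scale. For Cd24a it was 191, and 127 with a pseudocount of 5, 65 with Spearman's rho, 321 on linear values, 19 with genes per cell held constant and 72 without the 8 cells with the fewest genes. For Zfp42 it was 22, and 5 with Spearman's rho and 92 on linear values. For Pou5f1 it was 11, and 7 with a pseudocount of 5, 23 on linear values, 21 without the 8 cells and 21 without the 12 2-cell-like cells. For Gata4 it was 20, and 11 with Spearman's rho, 67 on linear values, 6 for genes in at least 20 cells, 57 for genes above 0 in at least 2 cells, 33 without the 2-cell-like cells, 9 without the highest Gata4 cell and 7 without the 4 cells with Gata4, Pdgfra, Sox17 and Cubn. The settings that leave out 2-cell-like or Gata4 cells were chosen after seeing the data. From 24 to 48 h, the higher genes numbered 4161 with no minimum mean, 419 with a mean of at least 20 and 680 on means of log2 values, and the lower ones 3743 with no minimum and 388 with a mean of at least 20. With at least 50 counts, 8 in place of 17 genes of the Cd24a set were higher in Q4.

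At 96 h, the 14 genes of the Gata4 set became 9 with DESeq2. Leaving out 1 library at a time gave 5 to 10 for it, and 5 to 7 for the 10 genes of the Cd24a set, and the lone library left was then assumed to vary like the other groups. The labels give the sorted libraries the same replicate numbers without saying that a number marks a shared culture (2 pairs, r of the deviations 0.33). With a replicate block over the 4 sorted libraries, the count of lower genes of the Cd24a set was 16 in place of 10 and that of the Gata4 set 16 in place of 14. Over all genes, the block gave 1324 higher and 1286 lower genes in place of 624 and 511, DESeq2 471 and 247, every gene with at least 1 count 838 and 829, and leaving out 1 library 131 to 435 higher and 131 to 222 lower. Of the results counted here, 31 values under an alternative moved and 55 did not. For numbers of cells with a marker and for SCRB-seq shares, moved means outside the exact binomial interval of the main value. For the other results it means a change of over 1.5 times. The balance of high and low genes did shift, from 20 and 2 to 13 and 13 for Zfp42 and from 10 and 1 to 7 and 14 for Pou5f1 without the 8 cells with the fewest genes, and from 20 and 2 to 12 and 11 for Zfp42 without the 2-cell-like cells. For single named genes and counts over all genes, 554 such values kept their side of the threshold, 127 no longer passed it, 9 newly passed it and 53 moved. Depth limits these data at low levels, since genes seen in few cells cannot be told from genes that were missed.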
